A study of Mus musculus with 12 samples.

Results

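The guanylate-binding protein genes Gbp2, Gbp3, Gbp4, Gbp5, Gbp6, Gbp7, Gbp8, Gbp9 and Gbp10 were followed across 4 groups of T cells. The 9 genes were chosen by name and were found by their Ensembl identifiers among the 38924 genes of the count files. They lie in 2 clusters, 4 genes on chromosome 3 and 5 on chromosome 5. The cells were CD4+ T cells from the spleens of adult C57BL/6 mice, either wild-type (WT) or STINGgt/gt, which the sample labels call STING KO. STINGgt/gt mice carry the Goldenticket allele of Tmem173 (STING), a missense mutation that leaves no functional protein in any cell of the animal. In both genotypes sorted naive cells were expanded with antibodies against CD3 and CD28, rested, and then cultured for 16 h with the solvent DMSO or with CMA (10-carboxymethyl-9-acridanone), a compound that binds and activates STING of mice. Each of the 4 combinations had 3 libraries. The labels also give each library a short sample name. For 5 of the 6 DMSO libraries its first digit is that of the CMA library with the same genotype and replicate number. No source says whether these digits mark animals, so p-values measure the spread between these libraries.

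Guanylate-binding proteins are large GTPases of the dynamin superfamily that hydrolyse GTP and assemble into oligomers on membranes. They are among the genes that cells transcribe most readily in response to interferon, in part through the interferon regulatory factors (IRFs). In macrophages they are known for coating vacuoles that hold bacteria or parasites, for breaking these open and for feeding microbial DNA and lipopolysaccharide to inflammasomes. STING, the adaptor of the cytosolic DNA sensor cGAS, activates the kinase TBK1 and the factor IRF3 and so leads to type I interferon.

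Reads counted on genes ranged from 27414450 to 43784910 per library, and 27.8% to 30.3% of all tallied alignments were not unique and were counted on no gene. Alignments on no annotated feature made up 4.86% to 5.47% in WT with DMSO and 6.79% to 7.16% in WT with CMA. In STINGgt/gt they made up 5.98% to 6.54% with DMSO and 6.02% to 6.33% with CMA. Their part in the differences between groups was not tested. Replicates differed beyond sampling noise in each pair (chi-square divided by its degrees of freedom, 2.64 to 29.8). Tmem173 itself, measured as a check of the labels, stood between 183 and 190.3 CPM (counts scaled to a common library size) in WT with DMSO and between 168 and 181 in STINGgt/gt with DMSO. With CMA it stood between 296 and 316 in WT and between 169 and 184 in STINGgt/gt, higher in WT by 0.80 on the log2 scale (edgeR adjusted p = 1.06e-10). A missense allele need not change the amount of its mRNA. The summed CPM of 6 T-cell markers (Cd3e, Cd3g, Cd4, Cd28, Lat and Trac) was 2143 to 2238 in WT with DMSO, 1818 to 1898 in WT with CMA, 2305 to 2326 in STINGgt/gt with DMSO and 2338 to 2390 in STINGgt/gt with CMA, and with CMA in WT Lat, Cd3e and Cd3g were called lower, Cd4 was called higher, and Cd28 and Trac were not called (edgeR). Marker transcripts of other cell types were also present and differed between the groups, and which cells they came from was not determined. The summed CPM of 6 B-cell markers was 196 to 204 in WT with DMSO, 282 to 302 in WT with CMA, 95.7 to 98.5 in STINGgt/gt with DMSO and 94.3 to 95.4 in STINGgt/gt with CMA. The 7 myeloid markers summed to 45.5 to 49.3, 57.6 to 61.7, 35.1 to 37.2 and 33.6 to 38.0 CPM in the same order of groups. With CMA in WT the myeloid sum followed Cst3 (38.6 ± 2.35 to 55.7 ± 2.43 CPM, SD, n = 3), the 1 marker called higher, while 3 of the 6 myeloid markers tested, Lyz2, Itgam and Fcgr3, were called lower (edgeR). The 6 markers of CD8 and natural killer cells summed to 75.3 to 79.5, 68.2 to 72.8, 54.2 to 62.2 and 58.4 to 65.3. Within the last list single genes went opposite ways. Cd8a was 22.8 ± 0.705 CPM in WT with DMSO, 12.9 ± 0.824 in WT with CMA, 5.43 ± 0.398 in STINGgt/gt with DMSO and 5.48 ± 0.213 in STINGgt/gt with CMA, whereas Eomes was lowest in WT with DMSO (18.0 ± 1.46) and 31.4 ± 4.93 in STINGgt/gt with DMSO (SD, n = 3). None of these markers was at zero in all libraries of a group. In such bulk libraries fewer cells of a type and less RNA per cell cannot be told apart. The paper reports that overnight CMA led to apoptosis of CD4+ T cells from WT but not from STINGgt/gt mice. Cell death was not measured in these libraries, and its part in the differences between groups was not tested.

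On chromosome 3 of GRCm38 the members run in the order Gbp5 (ENSMUSG00000040264, chr3:142496934-142522344), Gbp7 (ENSMUSG00000040253, chr3:142530338-142550083), Gbp3 (ENSMUSG00000028268, chr3:142560052-142573209) and Gbp2 (ENSMUSG00000028270, chr3:142620602-142638008), all on the plus strand. A further gene of the family, Gbp2b (ENSMUSG00000028269, chr3:142594847-142619179), sits between Gbp3 and Gbp2. On the minus strand of chromosome 5 lie Gbp8 (ENSMUSG00000034438, chr5:105014153-105139540), Gbp9 (ENSMUSG00000029298, chr5:105078394-105139539), Gbp4 (ENSMUSG00000079363, chr5:105115767-105139586), Gbp10 (ENSMUSG00000054588, chr5:105215699-105239533) and Gbp6 (ENSMUSG00000079362, chr5:105270704-105293699). Gbp4, Gbp8 and Gbp9 are annotated as overlapping genes that start next to each other and share 60 or 61 exonic bases. Translated from the GENCODE M21 transcripts, the 9 proteins hold 525 (Gbp8) to 638 (Gbp7) residues. Pairwise identity among the members ranged from 39.6% (Gbp5 and Gbp8) to 97.7% (Gbp6 and Gbp10, 611 residues each), and the next closest pair was Gbp6 and Gbp9 at 83.7%. Of the 100-base windows of the coding transcripts, 82.9% in Gbp6 and 70.9% in Gbp10 also occur in a transcript of another gene, against at most 10.2% in the other members. Leaving out Gm43302, an annotated gene that overlaps both, the shares were 46.7% in Gbp6 and 57.0% in Gbp10. Reads lying wholly within windows shared by counted genes cannot be placed on 1 gene, so the counts of Gbp6 and Gbp10 are partial and uncertain. Among the members, Gbp2 and Gbp5 alone have a cysteine at the first position of a C-terminal CaaX motif, where proteins are prenylated, and Gbp2b has it too.

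The 250 bases before the annotated start were taken from RefSeq (GRCm38.p6) for the members it lists there, Gbp2, Gbp3, Gbp5 and Gbp7, 4 of the 9, and for Gbp2b. They are shown because these 4 members rose with CMA in WT while Gbp2b did not. The capitals mark matches to the core of the interferon-stimulated response element (ISRE, searched as GAAA, any 2 bases and GAAA, on both strands) and to the gamma-activated sequence (GAS, TTCNNNGAA, its own reverse complement). ISRE is bound by complexes that hold IRF9 and by other IRFs, and GAS is an element of genes that respond to interferon-γ.
Gbp2, chr3:142620413-142620631, plus strand: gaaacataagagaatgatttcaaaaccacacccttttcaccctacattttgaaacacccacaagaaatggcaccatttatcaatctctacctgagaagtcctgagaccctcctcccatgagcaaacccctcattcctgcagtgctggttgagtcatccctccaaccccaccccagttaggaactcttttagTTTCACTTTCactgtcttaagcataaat
Gbp3, chr3:142559794-142560043, plus strand: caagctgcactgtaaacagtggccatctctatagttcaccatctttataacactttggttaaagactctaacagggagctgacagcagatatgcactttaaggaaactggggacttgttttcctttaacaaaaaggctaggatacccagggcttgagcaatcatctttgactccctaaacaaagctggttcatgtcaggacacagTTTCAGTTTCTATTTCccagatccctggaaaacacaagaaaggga
Gbp5, chr3:142496684-142496933, plus strand: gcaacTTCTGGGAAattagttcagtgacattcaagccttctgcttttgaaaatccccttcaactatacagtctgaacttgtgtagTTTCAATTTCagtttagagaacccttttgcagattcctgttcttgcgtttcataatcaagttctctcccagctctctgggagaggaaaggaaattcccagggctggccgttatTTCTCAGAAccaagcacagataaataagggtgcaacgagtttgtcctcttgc
Gbp7, chr3:142530086-142530335, plus strand: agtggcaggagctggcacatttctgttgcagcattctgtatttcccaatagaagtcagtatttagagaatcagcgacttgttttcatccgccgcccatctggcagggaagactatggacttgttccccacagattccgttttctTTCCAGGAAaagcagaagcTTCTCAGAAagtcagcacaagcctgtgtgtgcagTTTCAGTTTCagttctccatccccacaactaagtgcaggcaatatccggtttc
Gbp2b, chr3:142594597-142594846, plus strand: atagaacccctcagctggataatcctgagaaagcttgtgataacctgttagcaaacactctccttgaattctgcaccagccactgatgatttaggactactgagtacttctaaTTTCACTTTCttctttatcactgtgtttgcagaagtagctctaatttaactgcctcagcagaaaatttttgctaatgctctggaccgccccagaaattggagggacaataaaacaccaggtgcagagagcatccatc

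Positions were counted from the RefSeq start, which for Gbp5 and Gbp2b equals the gene start given above, for Gbp7 and Gbp3 lies 2 and 8 bases before it, and for Gbp2 lies 61 bases downstream of it. The window of Gbp2 was searched whole and is shown up to 30 bases past the gene start. An ISRE core was found in the window of Gbp2 at 59 to 50 bases before the RefSeq start, which is just inside the gene by the deposited position, in that of Gbp7 at 53 to 44 bases and in that of Gbp5 at 165 to 156 bases. The window of Gbp3 held 2 overlapping copies from 45 to 30 bases before the start, while the window of its second RefSeq start, 304 bases downstream of the gene start, held none. Gbp2b also had an ISRE core, 137 to 128 bases before its start. Over all 32851 windows of the same length, 2.98% held an ISRE core. Gbp5 had 2 GAS matches, Gbp7 had 2, and none was found in Gbp2, Gbp3 or Gbp2b, against 7.02% of all windows with a match. A κB-like match (GGG, any 5 bases and CC, on both strands, not in capitals above) occurred once in Gbp5 and once in Gbp2b, but 45.8% of all windows held one. A match describes the letters of the window and is not a binding site, and the 2 kinds of match in capitals did not overlap.

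**Figure D1:**
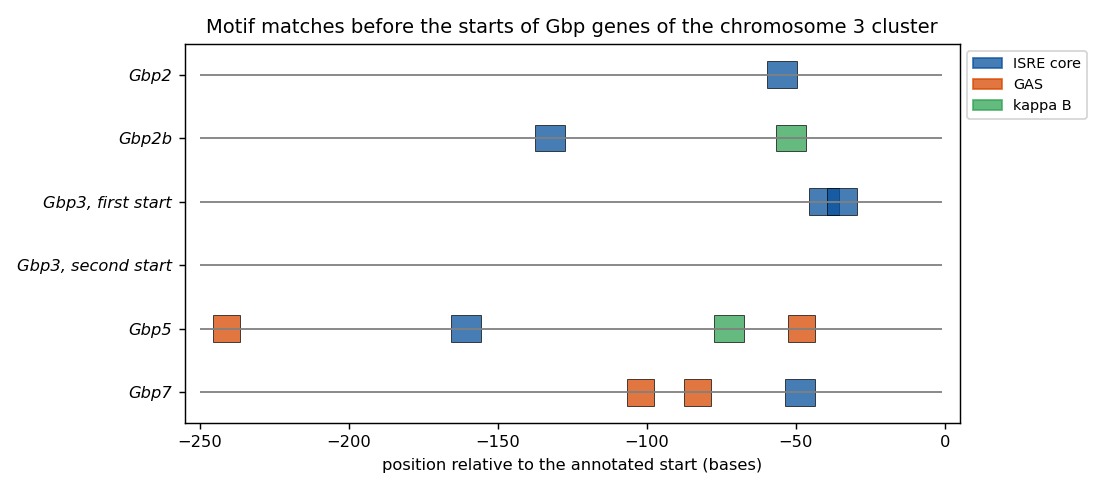
Matches to the ISRE core (blue), GAS (orange) and κB-like (green) motifs in the 250 bases before the annotated starts of Gbp2, Gbp2b, Gbp3, Gbp5 and Gbp7. The horizontal axis gives the position relative to the start in bases; every window but that of the second start of Gbp3 holds an ISRE core.

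The first comparison asked how CMA acted on the family in T cells with STING. With CMA all 9 members were higher than with DMSO in WT T cells, by 2.74-fold (Gbp2) to 8.41-fold (Gbp10). Of the 13811 genes tested with edgeR's quasi-likelihood model (Benjamini-Hochberg adjusted p under 0.05), 33% were called higher and 70.4% were called in either direction in this comparison. The median log2 fold change of the members was 2.05, against -0.04 over all genes tested. For each member the lowest CMA library exceeded the highest DMSO library, which held for 33.5% of all genes.

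Gbp2, which restricts Toxoplasma and releases bacterial DNA for the AIM2 inflammasome, was the most abundant member. In WT T cells the DMSO libraries held 631, 618 and 671 CPM of Gbp2 and the CMA libraries 1683, 1692 and 1892. The log2 fold change, 1.46 ± 0.05 (here and below ± is the standard error for log2 values; edgeR adjusted p = 4.06e-13), was the smallest among the members. Gbp5, known for its part in NLRP3 inflammasome assembly and, with Gbp2, in lysis of cytosolic bacteria, stood at 200.4, 195 and 195 CPM with DMSO and at 944, 925 and 998 with CMA. The groups were far apart, with a log2 fold change of 2.28 ± 0.05 (edgeR adjusted p = 1.09e-15).

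The other members of the chromosome 3 cluster are Gbp7, which takes part in delivering the NADPH oxidase to vacuoles, and Gbp3. Gbp7 rose from 86.5 ± 11.2 to 390.2 ± 23.5 CPM (SD, n = 3) or by 2.17 ± 0.08 on the log2 scale (edgeR adjusted p = 3.66e-13). Gbp3 stood at 36.7, 36.8 and 44.7 CPM with DMSO and reached 131, 130.5 and 139 with CMA. WT DMSO replicate 3 was the highest of its group for Gbp3 and for Gbp7, and both genes stayed well below every CMA library. Gbp3 rose by 1.75 ± 0.06 on the log2 scale (edgeR adjusted p = 5.01e-13).

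On chromosome 5, Gbp10 rose most when each gene was counted singly. It had 16.53, 16.71 and 16.65 CPM with DMSO and 137.7, 134.5 and 147.5 with CMA in WT T cells, an increase of 3.07 ± 0.05 on the log2 scale (edgeR adjusted p = 5.62e-17). Its near-identical neighbour Gbp6 rose from 49.3 ± 2.54 to 205 ± 4.62 CPM (SD, n = 3), or by 2.05 ± 0.05 on the log2 scale (edgeR adjusted p = 1.50e-15). Because reads can be split between the pair, their counts were also summed, for which CMA gave a rise of 2.38 on the log2 scale (edgeR adjusted p = 2.10e-16). Gbp9 rose from 46.4 ± 2.31 to 255 ± 9.10 CPM and Gbp8 from 38.8 ± 1.92 to 156 ± 9.97 (SD, n = 3). Their log2 fold changes were 2.46 and 2.01 (edgeR adjusted p = 1.51e-15 and 3.91e-14), and that of Gbp9 was above the value of the summed pair. Gbp4 rose from 128.5 ± 5.42 to 403 ± 23.9 CPM (SD, n = 3), or by 1.65 ± 0.05 on the log2 scale (edgeR adjusted p = 7.67e-14). The median log2 fold change was 1.96 for the 4 members on chromosome 3 and 2.05 for the 5 on chromosome 5. Among all genes tested, the members ranked between 206 (Gbp10) and 769 (Gbp2) by log2 fold change. The summed B-cell markers were also higher in WT with CMA than with DMSO (282 to 302 against 196 to 204 CPM), with 4 of the 6 called higher and Cd79b and Blk not called (edgeR), and their part in the rise of the family was not tested.

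**Figure D2:**
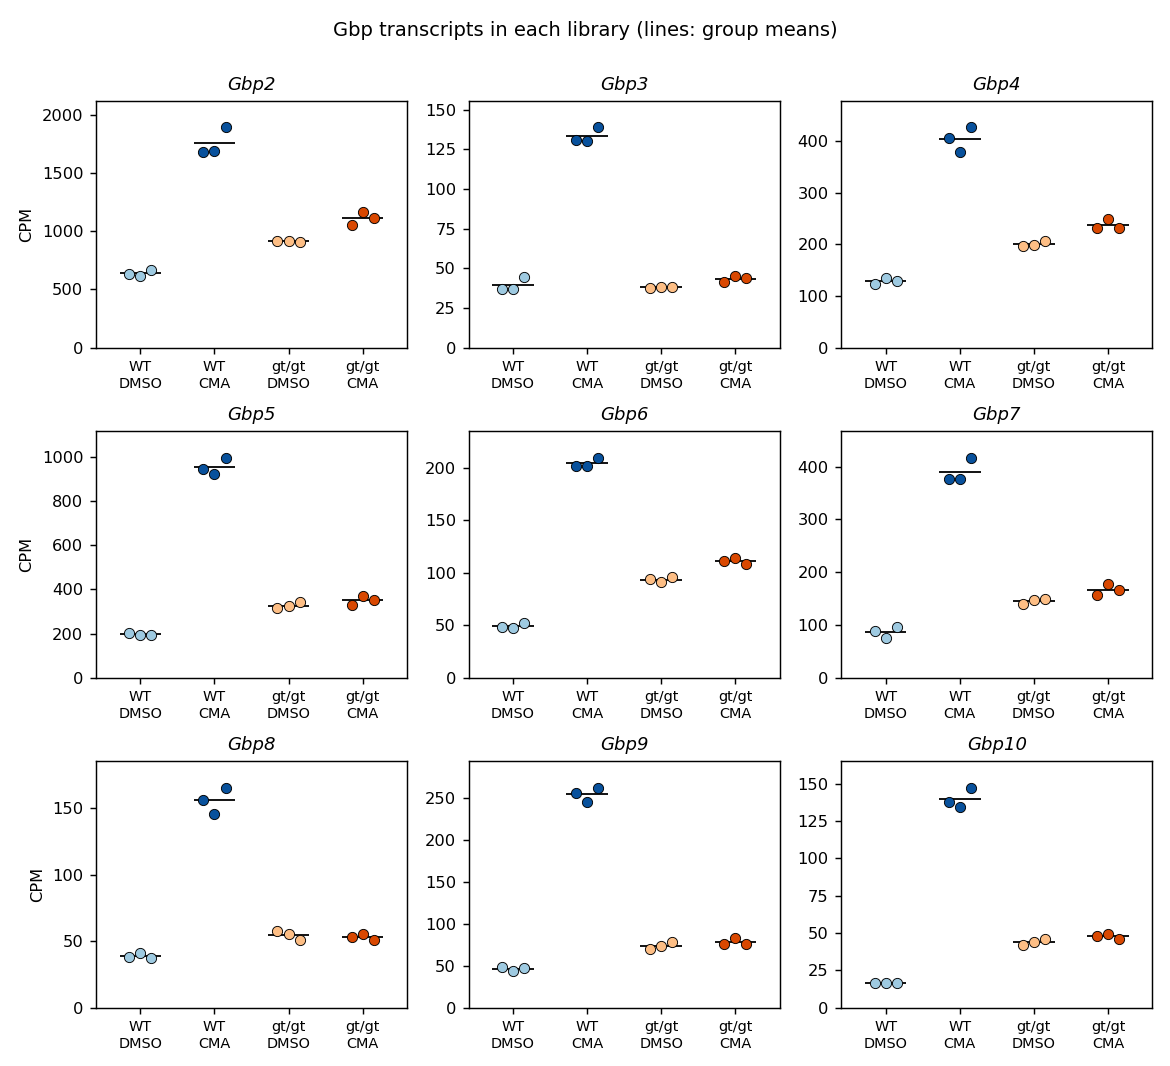
CPM of each member in each of the 12 libraries (points) with the group means (lines), on a linear vertical axis from 0 for each gene. In every panel the 3 WT libraries with CMA lie above the other 9 libraries; with DMSO the WT libraries lie below the STINGgt/gt libraries except for Gbp3.

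The same comparison in STINGgt/gt T cells asked what CMA did to the family without functional STING. Here 3 of the 9 members passed the test, Gbp2, Gbp4 and Gbp6, by 1.18-fold to 1.21-fold, and all 3 were higher with CMA. Of all genes tested, 0.398% were called higher and 1.32% in either direction by edgeR. The median log2 fold change of the members was 0.19, against 0.00 over all genes, and 8 of the 9 values were above zero.

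Gbp2 stood at 917, 919.6 and 911 CPM with DMSO and at 1054, 1162 and 1118 with CMA in this genotype, without overlap. The log2 fold change of Gbp2 was 0.28 ± 0.05 (edgeR adjusted p = 0.0119). Gbp6 went from 93.6 ± 2.49 to 111 ± 2.67 CPM (SD, n = 3), with a log2 fold change of 0.25 (edgeR adjusted p = 0.00930). Gbp4, whose protein is grouped by sequence with Gbp6, Gbp8, Gbp9 and Gbp10, went from 201 ± 5.53 to 237 ± 10.2 CPM (SD, n = 3), with a log2 fold change of 0.24 (edgeR adjusted p = 0.0273). Gbp3 and Gbp7 also had groups that did not overlap, with log2 fold changes of 0.19 and 0.20, but did not pass the threshold (edgeR adjusted p = 0.197 and 0.246). In all, 5 members had non-overlapping groups with CMA higher, as did 11.8% of all genes.

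Gbp5, Gbp9 and Gbp10 had overlapping groups in STINGgt/gt T cells, with log2 fold changes of 0.11, 0.09 and 0.12 (edgeR adjusted p = 0.373, 0.508 and 0.309). Gbp10 had CPM values of 42.2, 44.0 and 46.3 with DMSO and 48.0, 49.5 and 46.2 with CMA. Gbp8 was the one member with a value below zero, -0.04 (edgeR adjusted p = 0.849), with 57.3, 55.1 and 50.9 CPM with DMSO and 53.4, 55.2 and 50.6 with CMA. The 3 calls were sensitive to single libraries. The number of members called was 0 without STINGgt/gt DMSO replicate 1, without DMSO replicate 2 or without CMA replicate 2, 1 without DMSO replicate 3 or without CMA replicate 3, and 2 without CMA replicate 1, while the log2 fold change of Gbp2 stayed between 0.24 and 0.31. It was 5 with only the 2 STINGgt/gt groups in the model and 0 with a block by the first digit of the library name. The B-cell markers in these cells summed to 94.3 to 95.4 CPM with CMA and to 95.7 to 98.5 with DMSO.

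The effect of CMA differed between the genotypes for all 9 members. Of all genes tested, the difference was called higher in WT for 27.2% and in either direction for 58.8% (edgeR interaction contrast). On the log2 scale the effect was larger in WT by 1.18 ± 0.07 for Gbp2 (edgeR adjusted p = 1.02e-09) and by 2.95 ± 0.07 for Gbp10 (edgeR adjusted p = 2.45e-14), which were the ends of the range over single genes. The values for Gbp5 and Gbp9 were 2.17 and 2.37 (edgeR adjusted p = 3.83e-13 and 4.93e-13). For the summed counts of Gbp6 and Gbp10 the value was 2.175 (edgeR adjusted p = 1.58e-13), which is below that of Gbp9. The median over the members was 1.97, against -0.03 over all genes. In the same contrast 4 of 6 B-cell markers were called higher and 0 lower, with a median of 0.44 (edgeR). Of 6 T-cell markers, 1 was called higher and 4 lower. Of 6 myeloid markers tested, 1 was higher and 3 lower, as were those of the 6 for CD8 and natural killer cells. The part of these markers in the difference was not tested.

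**Figure D3:**
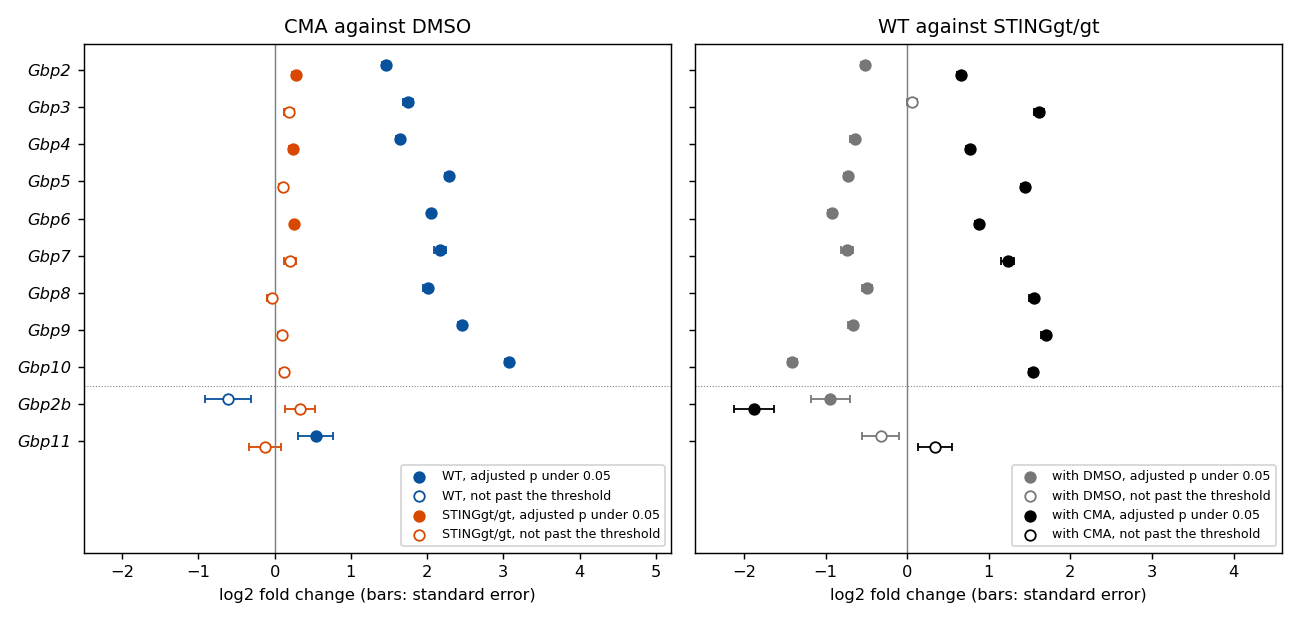
Log2 fold changes with their standard errors for CMA against DMSO in each genotype (left) and for WT against STINGgt/gt with each treatment (right). Filled points passed the adjusted p threshold in edgeR; below the dotted line stand Gbp2b and Gbp11, the other counted genes of the family.

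Without CMA the family was lower in WT than in STINGgt/gt T cells. With DMSO 8 of the 9 members were called lower in WT, where 19.8% of all genes were called lower and 42.7% in either direction (edgeR). For these 8 members all 3 WT libraries lay below all 3 STINGgt/gt libraries, as they did for 22.6% of all genes. The median log2 difference, WT minus STINGgt/gt, was -0.67 over the members and 0.00 over all genes.

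Gbp10 differed most, with 16.53, 16.71 and 16.65 CPM in WT against 42.2, 44.0 and 46.3 in STINGgt/gt T cells. It was lower in WT by 2.65-fold, a log2 difference of -1.41 ± 0.05 (edgeR adjusted p = 8.31e-12). Gbp6 was lower by 1.90-fold, a log2 difference of -0.92 (edgeR adjusted p = 1.60e-10), and the summed pair gave -1.06 (edgeR adjusted p = 2.40e-11). Gbp5 had 200.4, 195 and 195 CPM in WT and 314, 324 and 341 in STINGgt/gt T cells, a log2 difference of -0.73 (edgeR adjusted p = 5.41e-09). The 5 remaining lower members, Gbp2, Gbp4, Gbp7, Gbp8 and Gbp9, differed by 1.41-fold (Gbp8) to 1.67-fold (Gbp7). Gbp3 alone was not called, with 36.7, 36.8 and 44.7 CPM in WT and 37.6, 38.3 and 38.1 in STINGgt/gt T cells. Its log2 difference was 0.06 (edgeR adjusted p = 0.517) and became -0.05 without WT DMSO replicate 3. Requiring a 2-fold difference as well left 1 member, Gbp10. Most markers of other cells went the other way. All 6 B-cell markers and all 6 myeloid markers tested were called higher in WT, with median log2 differences of 1.05 and 1.81, as were 4 of the 6 markers of CD8 and natural killer cells, with Eomes called lower (edgeR). Of the 6 T-cell markers, Cd4 and Cd3e were called lower in WT, by -0.31 and -0.14 on the log2 scale (edgeR adjusted p = 5.20e-06 and 0.0176). The other 4 were not called. The part of these markers in the difference was not tested.

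With CMA the order of the genotypes was turned. All 9 members were higher in WT than in STINGgt/gt T cells, by 1.58-fold (Gbp2) to 3.24-fold (Gbp9), without overlap of the libraries. Of all genes tested, 37% were called higher in WT and 73.5% in either direction (edgeR), and 39.7% had non-overlapping groups with WT higher. Gbp3 and Gbp9, with log2 differences of 1.62 and 1.70 (edgeR adjusted p = 7.39e-13 and 5.04e-14), were the members at the upper end, and Gbp2 and Gbp4, with 0.66 and 0.77 (edgeR adjusted p = 5.97e-09 and 6.47e-10), at the lower end. This comparison shares its WT CMA libraries with the CMA effect in WT, and its STINGgt/gt CMA libraries with the effect in that genotype. All 6 B-cell markers were also called higher in WT with CMA (282 to 302 against 94.3 to 95.4 summed CPM), with a median log2 difference of 1.55, against 1.44 for the members. Of the other lists, 4 of 6 myeloid markers were called higher, 4 of 6 T-cell markers lower, and 3 markers of CD8 and natural killer cells higher and 3 lower (edgeR). The part of these markers in the difference was not tested.

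Summed over the 9 members, the transcripts reached 1242 ± 41.9 CPM in WT with DMSO, 4393 ± 232 in WT with CMA, 1892 ± 24.9 in STINGgt/gt with DMSO and 2200 ± 101 in STINGgt/gt with CMA (SD, n = 3). As a share of all reads on genes this was 0.124%, 0.430%, 0.192% and 0.223%. The make-up of the family shifted with CMA in WT T cells. Gbp2 made up 51.2% to 52.1% of the summed CPM in WT with DMSO and 39.2% to 40.6% with CMA, whereas in STINGgt/gt T cells it made up 47.5% to 49.1% with DMSO and 50.1% to 51.0% with CMA. The groups did not overlap in either genotype.

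Levels of different genes were compared per length, as CPM per kilobase of the union of exons. Gbp2 was highest in every group, at 254 ± 11.0 in WT with DMSO, 698 ± 47.0 in WT with CMA, 364 ± 1.71 in STINGgt/gt with DMSO and 442 ± 21.6 in STINGgt/gt with CMA (SD, n = 3). Gbp5 came next in each group, with 29.7 ± 0.456, 144 ± 5.70, 49.2 ± 2.07 and 52.9 ± 2.88 in the same order. Its level depended on the length used, and in WT with CMA it was 254.5 with the longest transcript and 313 with the longest protein-coding transcript. In WT with DMSO the order went on as Gbp4, Gbp7, Gbp3, Gbp8, Gbp9, Gbp6 and Gbp10, from 17.1 to 4.29 CPM per kilobase. Neighbours among Gbp4, Gbp7, Gbp3 and Gbp8 overlapped, as did Gbp9 and Gbp6, while Gbp10 was lowest without overlap. In WT with CMA Gbp7 followed Gbp5 with 69.5 ± 4.19, Gbp4, Gbp9, Gbp8 and Gbp3 came next with 53.8 to 40.8, each overlapping its neighbour, and Gbp10 (36.1 ± 1.75) and Gbp6 (34.4 ± 0.775) were lowest and overlapped each other. In STINGgt/gt T cells Gbp10 was lowest with either treatment, at 11.4 ± 0.531 with DMSO and 12.4 ± 0.415 with CMA, and overlapped Gbp3. With only the exon bases that no other gene shares, Gbp10 held rank 4 in WT with CMA, at 67.2 ± 3.25, and rank 6 in both STINGgt/gt groups, at 21.2 ± 0.989 and 23.01 ± 0.773, and Gbp3 was lowest in these 3 groups. The first and second ranks of Gbp2 and Gbp5 in WT with CMA held with each of the 3 other definitions of length tried, but the order below them did not.

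**Figure D4:**
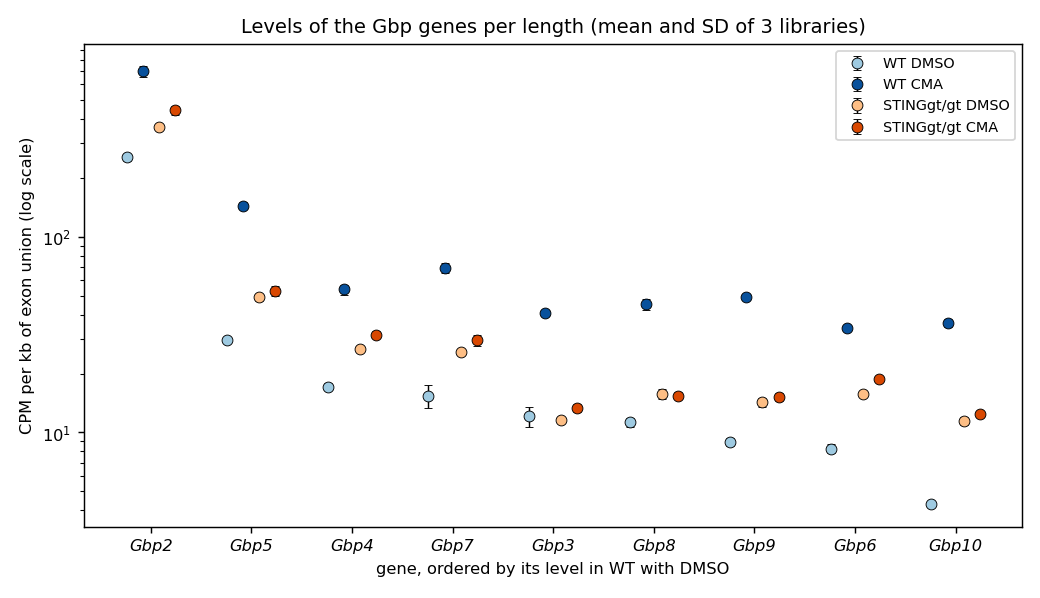
Mean level of each member in CPM per kilobase of exon union, on a log vertical axis, with the SD of 3 libraries for each of the 4 groups. Gbp2 and Gbp5 are the highest in every group, and Gbp10 rises from 4.29 in WT with DMSO to 36.1 in WT with CMA.

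Both other counted genes of the family, Gbp2b and Gbp11, were rare, with 14 to 117 and 19 to 37 reads per library. Gbp2b, which encodes mouse Gbp1 and restricts Toxoplasma and Listeria, shares 76.2% of its residues with Gbp2. The WT libraries held 0.910, 0.738 and 0.829 CPM of Gbp2b under DMSO and 0.586, 0.432 and 0.599 under CMA. They were 1.75, 1.72 and 1.25 in STINGgt/gt with DMSO and between 1.51 and 2.65 with CMA. In WT the CMA libraries lay below the DMSO libraries, a log2 fold change of -0.61 that did not pass the threshold (edgeR adjusted p = 0.0836, and 0.0316 to 0.219 over the alternative analyses). The CMA effect on Gbp2b was lower in WT than in STINGgt/gt, with a log2 difference of -0.94 (edgeR adjusted p = 0.0341), the opposite direction to the members, and the p ranged from 0.0102 to 0.0901 over the alternatives. With DMSO it was lower in WT than in STINGgt/gt T cells, like 8 of the members (log2 difference -0.94, edgeR adjusted p = 0.00475). With CMA it was lower in WT by 3.69-fold (log2 difference -1.88, edgeR adjusted p = 3.30e-06). Gbp11 had a log2 fold change of 0.54 with CMA in WT (edgeR adjusted p = 0.0428) with overlapping groups, and it was called in none of the other 4 comparisons (unadjusted p = 0.0473 for the difference between genotypes, edgeR).

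The immunity-related GTPases, which act with Gbp proteins on vacuoles, were listed with 8 genes. All 8 were called higher with CMA in WT, where 33% of all genes were, with a median log2 fold change of 1.73. Irgm2 and Irgm1, which keep the other GTPases off the cell's own membranes, rose by 1.89 and 1.76, and Tgtp2 by 1.83 (edgeR adjusted p = 1.47e-14, 2.52e-14 and 9.28e-15). In STINGgt/gt T cells 5 of the 8 were called higher with CMA, against 0.398% of all genes, Irgm1 by 0.35 and Irgm2 by 0.27 (edgeR adjusted p = 0.00232 and 0.0138). Over all genes this comparison called 182, and 56 to 103 when a single STINGgt/gt library was left out. Which of these 5 calls held then was not followed. With DMSO all 8 were called lower in WT than in STINGgt/gt T cells, as were 19.8% of all genes. Mx1, Mx2 and Gvin1, large interferon-induced GTPases of other families, were higher with CMA in WT by log2 values of 6.80, 4.99 and 1.23 (edgeR adjusted p = 5.88e-18, 5.26e-17 and 5.70e-09). None of these 3 was called in STINGgt/gt T cells by edgeR (0 with an unadjusted p under 0.05), and all 3 were called lower in WT with DMSO, against the same 19.8% of all genes.

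Of 16 genes for interferons, their receptors and the factors that act on Gbp genes, 11 were higher and 4 lower with CMA in WT, where 70.4% of all genes were called. Ifnb1, which encodes interferon-β, had 0 or 1 read per library in both DMSO groups, exactly 1 in each STINGgt/gt library with CMA and 34 to 58 in WT with CMA. These are reads of mRNA, and in the paper a bioassay could not detect type I interferon protein from T cells treated with CMA. Irf7, the factor that amplifies type I interferon, went from 9.13 ± 2.25 to 473 ± 12.3 CPM (SD, n = 3), or by 5.69 on the log2 scale (edgeR adjusted p = 5.59e-15). Stat2 and Irf9, whose products are part of a complex that binds ISRE, rose by 1.98 and 1.36 (edgeR adjusted p = 3.77e-14 and 5.46e-12). In STINGgt/gt T cells Irf1, a direct activator of Gbp genes, and Irf8 were higher and Ifngr2, a chain of the interferon-γ receptor, was lower with CMA, with log2 fold changes of 0.29, 0.21 and -0.27 (edgeR adjusted p = 0.00383, 0.0242 and 0.0242). Whether these calls held when single libraries were left out was not followed. In WT T cells Irf8 was among the 4 that fell with CMA, by 0.56 on the log2 scale (edgeR adjusted p = 6.67e-09). With DMSO 6 of the 16 were lower in WT than in STINGgt/gt T cells, among them Irf1 (-0.45) and Irf7 (-0.89), and 3 were higher, where 19.8% of all genes were called lower and 42.7% in either direction. The 3 were Ifng, Ifngr1 and Ifngr2, with log2 differences of 2.25, 0.77 and 0.31 (edgeR adjusted p = 1.05e-11, 3.36e-09 and 2.59e-04). Ifng, which encodes interferon-γ, the classical inducer of Gbp genes, was named after its values were seen. It had 56.8 ± 0.593 CPM in WT with DMSO, 34.1 ± 2.86 in WT with CMA, 11.9 ± 0.850 in STINGgt/gt with DMSO and 9.81 ± 1.66 in STINGgt/gt with CMA (SD, n = 3). Its part in the levels of the Gbp genes was not tested.

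Genes whose products work beside Gbp proteins moved less evenly. Of 13 genes of ubiquitin-like targeting and autophagy at vacuoles, 7 were higher and 5 lower with CMA in WT, where 33% of all genes were called higher and 70.4% in either direction, and none was called in STINGgt/gt T cells by edgeR (1 with an unadjusted p under 0.05). Trim21, an antibody receptor and ubiquitin ligase, and Sqstm1, the receptor p62, rose by 1.00 and 0.81, whereas Gabarapl1, an ATG8 homologue, fell by 1.39 on the log2 scale (edgeR adjusted p = 3.22e-11, 5.49e-11 and 1.76e-11). Of 8 inflammasome genes, 5 were higher and 1 lower in WT, against the same 70.4% of all genes called, and none was called in STINGgt/gt T cells (2 with an unadjusted p under 0.05 in edgeR). Casp1, Casp4 (caspase-11, the sensor of cytosolic lipopolysaccharide) and Gsdmd, the pore former of pyroptosis, rose by 0.95, 0.94 and 0.91 (edgeR adjusted p = 2.26e-07, 1.47e-09 and 1.92e-11), and Pycard, which encodes the adaptor ASC, fell by 0.61 (edgeR adjusted p = 3.46e-07). Of 5 genes for prenylation and CaaX processing, the modification that Gbp2 and Gbp5 receive, 3 were higher and 1 lower with CMA in WT. Of all genes, 33% were called higher and 70.4% in either direction (edgeR). Pggt1b and Rce1 rose by 0.45 and 0.35, Icmt by 0.18, and Fntb fell by 0.57 in WT (edgeR adjusted p = 0.00293, 2.29e-05, 0.00294 and 1.09e-06).

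**Figure D5:**
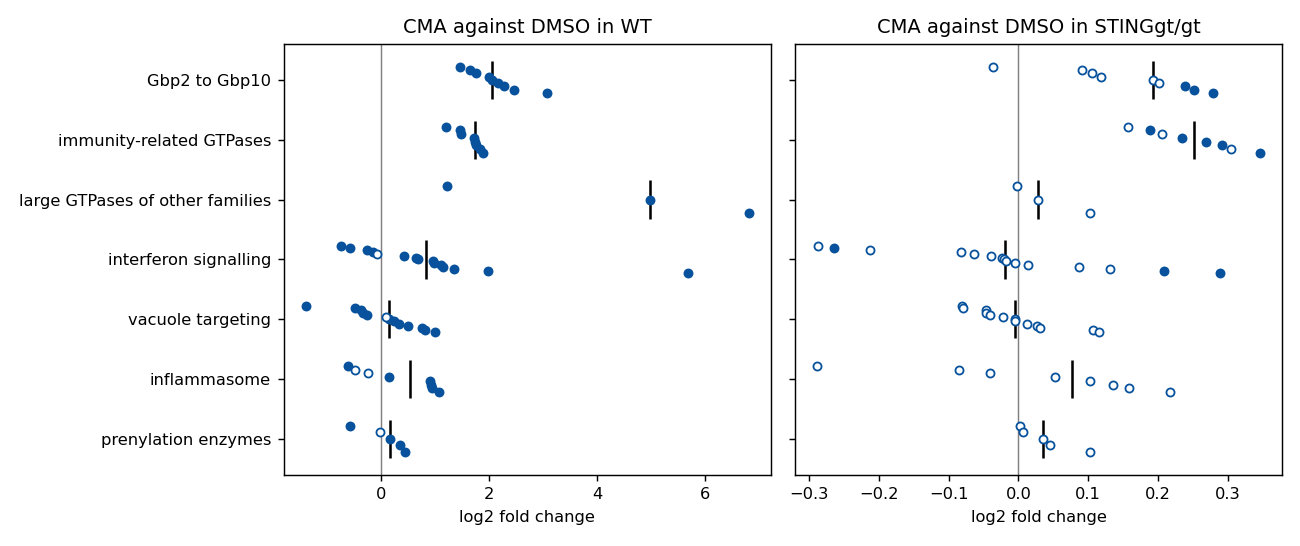
Log2 fold changes for CMA against DMSO in WT (left) and STINGgt/gt T cells (right, on a narrower axis) for the 9 members and 6 lists of related genes; each point is a gene, filled where it passed the adjusted p threshold, and the vertical lines mark list medians. Ifnb1, with 0 or 1 read per library outside WT with CMA, is not drawn but counts in the median of its list.

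Among the genes outside the family that most closely followed the pattern of the members' mean log2 CPM over the 12 libraries were Igtp (Pearson's r = 0.997), Ifih1 (0.997), Irgm2 (0.997) and Cd96 (0.996), out of 11199 genes with a mean count of at least 50. The libraries share their groups, and 7.43% of these genes had an r above 0.9, so the values describe likeness only. Among the members Gbp5 was closest to the mean (0.999) and Gbp3 farthest from it (0.922).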

How the data were processed

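A strand-specific mRNA kit was used for the 12 libraries. The authors deposited, per library, raw counts of reads on each Ensembl gene (HTSeq 0.6.1). They also deposited normalized log2 expression of 11921 genes, which gave gene names and positions and served as an alternative input. The submitters' processing notes also name cutadapt 1.3, STAR 2.4.0f1, RSEM 1.2.16 and GRCm38; the strand setting and the annotation release of the counting are not given in the sources used here. Tally lines that name no gene were left out of library sizes. A reference list gives ENSMUSG00000040264 and ENSMUSG00000079362 other names (Gbp2b and Gm43302), and the deposited names, which match the positions of Gbp5 and Gbp6, were kept.

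The counts were fitted with edgeR 4.0.16 (R 4.3.3; glmQLFit and glmQLFTest, TMM scaling, filterByExpr by group, 13811 genes kept) with the 4 groups in 1 model, and p-values were adjusted over all genes kept (Benjamini-Hochberg, threshold 0.05). The model was tested on simulated counts in which few genes were changed, as many up as down, in WT with CMA only. That does not test TMM scaling where most genes were called, as for CMA in WT. CPM values are counts divided by the TMM-adjusted library size and scaled by the same constant in all libraries, and levels between genes were divided by the union of exons in GENCODE M21. The members and the gene lists were chosen with earlier results of these data known. All members are described whether or not they passed a test. By rule, each list names at most 3 genes with the largest change in WT (mean count of at least 50). Genes against the majority of a list are also named where at most 3 are, as are the 5 genes with the closest pattern. Some genes, among them Ifnb1, Ifng, Irf1, Irf8 and Icmt, are named outside this rule. The alternatives were library-size scaling, DESeq2 1.42.0, limma 3.58.1 on the deposited log2 table, other filters, thresholds and lengths, only the groups compared, summed counts of near-identical members, replicate blocks and leaving out each library; 2 of the 3 other lengths were added after the data were seen. Precision is limited by 3 libraries per group. The members had 454 reads or more in every library. A gene that the rules would name is not reported here by name, though it stays in the counts of its list.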

Additional observations from a re-analysis of the deposited data

Results flagged for a closer look

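By edgeR's interaction contrast, all 9 members responded to CMA to a different degree in the 2 genotypes. The log2 differences, WT minus STINGgt/gt, were 1.18 for Gbp2, 1.56 for Gbp3, 1.41 for Gbp4, 2.17 for Gbp5, 1.80 for Gbp6, 1.97 for Gbp7, 2.04 for Gbp8, 2.37 for Gbp9 and 2.95 for Gbp10, with 3 of 3 libraries higher with CMA in WT for each. Gbp2b differed in the opposite direction, with -0.94 (adjusted p = 0.0341, edgeR), at 14 to 117 reads per library. Leaving out WT DMSO replicate 1 or 3, WT CMA replicate 2, STINGgt/gt DMSO replicate 3 or STINGgt/gt CMA replicate 2 lost that call for Gbp2b, with values of -0.92 to -0.65. The causes were not tested. With 3 libraries per group, single libraries were not tested as outliers.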

How the results depend on the processing

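The counts of 9 members called for CMA in WT, 9 for the difference between genotypes and 9 for WT against STINGgt/gt with CMA held within 1.5 times under every alternative run (6 with a 2-fold minimum for the last), and no member changed sign in these comparisons. For CMA in STINGgt/gt, 3 members were called, 5 with no filter on low counts, 5 with only the groups compared, 1 at an adjusted p under 0.01, 0 with a 2-fold minimum and 0 to 4 when single libraries were left out; Gbp8 changed sign without STINGgt/gt DMSO replicate 1 (-0.083 to 0.001 on the log2 scale when single libraries were left out). For WT against STINGgt/gt with DMSO, 8 were called and 1 with a 2-fold minimum, and Gbp3 became -0.053 without WT DMSO replicate 3 (-0.053 to 0.103 over the libraries left out). The causes were not tested.

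No pairing was read from the replicate numbers. Deviations from the group means correlated by 0.00195 to 0.132 between DMSO and CMA libraries of the same number, not all above 0.1. Between different numbers within a genotype they correlated by -0.15 to 0.056. WT DMSO replicate 1 correlated best with WT CMA replicate 2, and every other DMSO library with the CMA library of its own number. These values do not settle whether the numbers mark pairs, so blocks were run as alternatives only. With the replicate block, 9, 4, 9, 8 and 9 members were called for CMA in WT, CMA in STINGgt/gt, the difference, and WT against STINGgt/gt with DMSO and with CMA. For the CMA effects and their difference the block was the replicate number within a genotype. For WT against STINGgt/gt it was the number across both genotypes, which no source gives as a pair. With the block by library name 0 were called for CMA in STINGgt/gt, where 43 genes were called in all against 182 without it.

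Gbp2's percent of the summed level per length was 70.4 in WT with DMSO, 59.6 in WT with CMA, 68.1 in STINGgt/gt with DMSO and 70.0 in STINGgt/gt with CMA. It was 63.2, 51.9, 60.6 and 62.7 with the longest transcript, 59.5, 47.9, 56.7 and 58.9 with the longest protein-coding transcript, and 68.6, 56.9, 65.6 and 67.6 with exons not shared with other genes, since each changes the lengths. Each member had 454 reads or more in every library, and an effect of depth was not tested. Reads that are not unique may limit Gbp6 and Gbp10, but such reads were not counted per gene.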

Other observations

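In GENCODE M21, Gbp6 and Gbp10 share 29.0% and 46.3% of their exonic bases with Gm43302 on the same strand, and Gbp7 shares 11.3% with Gm43802. Of the 9 members, 3 have the same start and end in GENCODE M21 as in the deposited table. The spread between replicates of the members, as a coefficient of variation, ran from 0.469% (Gbp2 in STINGgt/gt with DMSO) to 12.9% (Gbp7 in WT with DMSO).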
